A study of Mus musculus with 4 samples.

Results

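Collagens are matrix proteins built from chains in which glycine recurs in steps of 3 residues. The genes of 40 collagen chains, of 25814 genes listed, were followed here in cultured keratinocytes (KCs), the epithelial cells of the epidermis. Every listed gene with a collagen chain symbol was taken, 44 in all, and 4 were then left out: Col17a1, Col7a1, Col4a1 and Col4a2, which hold the epidermis to its basement membrane or build that membrane. The members thus include the main collagens of fibroblasts. Their levels are therefore also set beside fibroblast markers, without deriving an amount of fibroblast RNA.

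The KCs were prepared from tail skin of adult 129/sv mice and grown without treatment in serum-free medium of low calcium. Poly(A) RNA was read in 2 libraries of wild-type (WT) mice and 2 libraries labelled Nfat5-Knockout, from Nfat5-/- siblings. NFAT5 is a transcription factor known for its response to hypertonic stress, and the mice carry the disrupted gene in the whole body. The design text describes 2 independent experiments per genotype, and the study names WT and Nfat5-/- sibling mice as the source of the KCs, but which mouse gave which library is not spelled out, so the p-values measure the spread between these libraries.

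Reads in genes numbered 16219445 for WT replicate 1, 21612980 for WT replicate 2, 23494436 for Nfat5-Knockout replicate 1 and 18645422 for Nfat5-Knockout replicate 2. At these depths 3 reads, taken as the floor, were worth 0.0249 to 0.0361 RPKM (exon reads divided by exon length in kilobases and by library depth) for an example gene of 5000 bases. There were no molecular identifiers, so this floor and the intervals below cover counting error only. Nfat5 itself had 408 and 929 reads in WT and 715 and 770 reads in Nfat5-Knockout (log2 fold change 0.09, SE 0.26, edgeR adjusted p = 0.913). Counts per gene do not show which of its exons were read, so this level is no check of the labels, from which the groups were taken.

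All collagens wind 3 chains into a triple helix, which needs glycine at these regular steps because no larger residue has room in its core. Fibrillar collagens, such as types I, III and V, have 1 long unbroken helix and form the fibrils of dermis, tendon and bone. Fibril-associated collagens sit on those fibrils, network collagens form sheets, beaded filament collagens form microfibrils around cells, transmembrane collagens stay in the cell membrane, and multiplexins have many interruptions and lie in basement membranes. In skin, fibroblasts are the main source of the fibrillar and beaded filament types, whereas KCs make chains of the basement membrane.

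The coding sequences of all 40 members were read from the GENCODE M21 transcripts (GRCm38), and the longest unbroken run of triplets that begin with a glycine codon was counted. The runs went from 23 triplets in Col26a1 to 344 in Col3a1. All 9 members with a run of at least 300 triplets were fibrillar chains, and 25 members had a longest run under 100. The stretches shown are from the 3 most abundant members, which are not fibrillar, and from 2 fibrillar chains that were read at low levels. Each begins with its gene's longest run, and the capitals mark the glycine codon that begins each triplet of that run, while glycine codons at other places stay in lower case.
Col18a1, codons 953 to 982: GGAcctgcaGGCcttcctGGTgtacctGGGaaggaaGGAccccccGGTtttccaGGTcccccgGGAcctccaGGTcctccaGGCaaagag
Col8a1, codons 352 to 381: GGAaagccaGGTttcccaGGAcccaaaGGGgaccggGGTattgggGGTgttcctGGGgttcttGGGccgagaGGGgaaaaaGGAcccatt
Col26a1, codons 199 to 273: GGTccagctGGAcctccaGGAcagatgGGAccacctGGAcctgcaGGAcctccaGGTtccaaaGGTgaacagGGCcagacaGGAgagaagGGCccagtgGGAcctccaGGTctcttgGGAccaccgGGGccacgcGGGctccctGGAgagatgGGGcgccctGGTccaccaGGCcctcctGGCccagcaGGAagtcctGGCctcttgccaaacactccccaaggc
Col5a2, codons 211 to 240: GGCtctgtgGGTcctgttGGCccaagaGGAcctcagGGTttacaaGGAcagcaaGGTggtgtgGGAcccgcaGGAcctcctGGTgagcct
Col1a1, codons 168 to 197: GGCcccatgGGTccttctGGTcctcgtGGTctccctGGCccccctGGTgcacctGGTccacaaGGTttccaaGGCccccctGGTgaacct
The Col26a1 stretch holds its whole longest run and shows its end, after which the triplets no longer begin with a glycine codon. The run of Col18a1 counted 30 triplets and that of Col8a1 61, against 339 in Col5a2 and 338 in Col1a1.

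Of the 40 genes, 1 (Col18a1) exceeded 100 RPKM in the group where it was higher, 1 (Col8a1) lay between 10 and 100 RPKM, 5 lay between 1 and 10 RPKM and 9 between 0.1 and 1 RPKM. The remaining 24 stayed under 0.1 RPKM, the highest of them at 0.0795 RPKM. In total the members summed to 260, 247, 241 and 324 RPKM in WT 1, WT 2, Nfat5-Knockout 1 and Nfat5-Knockout 2. Col18a1 made up 85.4% to 89.6% of this sum, and without it the members summed to 33.8, 32.2, 35.2 and 33.8 RPKM. The 4 genes left out were high in the same libraries: Col17a1, the hemidesmosomal collagen, lay between 182 and 266 RPKM, Col7a1, the chain of the anchoring fibrils, between 16.7 and 33.2 RPKM, and the type IV chains Col4a1 and Col4a2 between 18.9 and 43.7 RPKM.

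**Figure D1:**
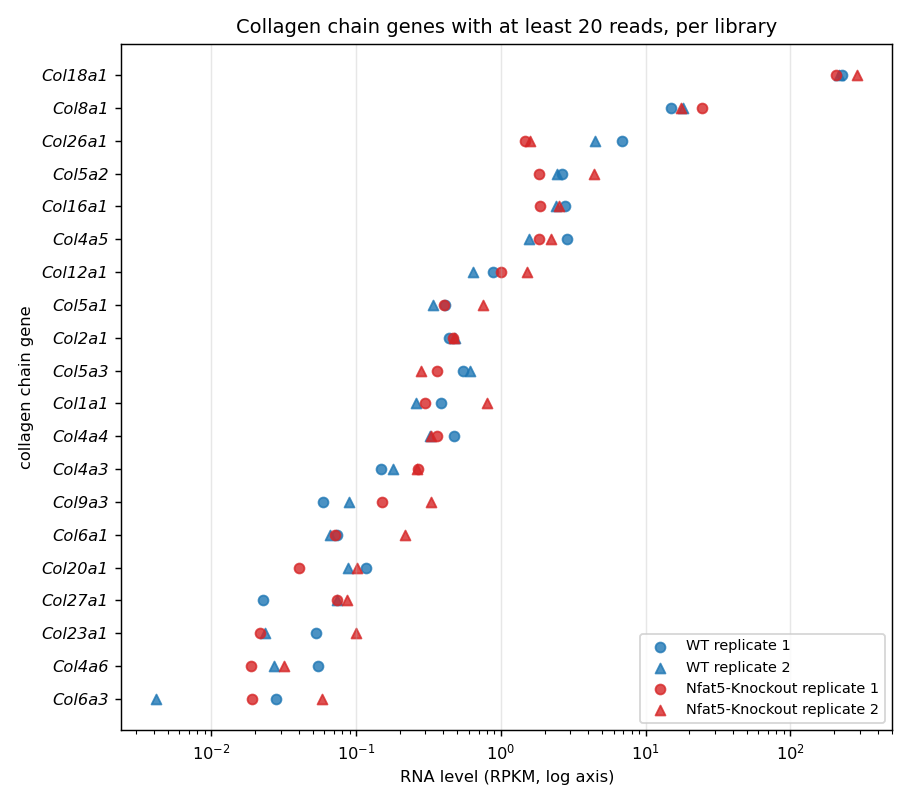
RPKM (log axis) of the 20 collagen chain genes with at least 20 reads over the 4 libraries and a value above 0 in each, with 1 point per library. Col18a1 stood above 200 RPKM in every library, Col8a1 between 14.9 and 24.5 RPKM, and Col6a1, Col6a3 and the type I chain Col1a1 under 1 RPKM.

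The multiplexin Col18a1 (ENSMUSG00000001435, chr10:77052178-77166548, GRCm38, 50 exons) codes for a heparan sulphate-bearing collagen of basement membranes whose end can be cut off as endostatin. It was read at 226 and 215 RPKM in WT libraries and at 206 and 290 RPKM in Nfat5-Knockout, and ranked 274 among all listed genes by mean RPKM. The groups overlapped, since Nfat5-Knockout replicate 1 was the lowest and replicate 2 the highest library. Of its exon reads 65.99% were placed at a single site, and these alone gave 148, 139, 138 and 193 RPKM. A further gene on the opposite strand, Slc19a1, overlaps it with 1685 reads against 134220 of Col18a1, and the counting was not stated to use strand. Col15a1, the only other multiplexin, had 5 exon reads in all 4 libraries against 133377 of Col18a1.

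Among the short-chain network collagens, Col8a1 (chr16:57624258-57754737) was the abundant member. Type VIII collagen is known from vessel walls and from Descemet's membrane of the cornea. Col8a1 was read at 14.9 and 18.0 RPKM in WT libraries and at 24.5 and 17.6 RPKM in Nfat5-Knockout. Only Nfat5-Knockout 1 stood above the WT libraries. Its partner chain Col8a2 had 4 exon reads over the 4 libraries against 8034 of Col8a1, and Col10a1, a chain of hypertrophic cartilage, had no read.

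Col26a1 (ENSMUSG00000004415, chr5:136741759-136883209, 15 exons), a small collagen with an EMI domain at its start, was read at 6.84 and 4.46 RPKM in WT libraries and at 1.46 and 1.58 RPKM in Nfat5-Knockout, from 338, 285, 105 and 90 reads. Both Nfat5-Knockout libraries lay below both WT libraries. It was the third most abundant member in WT.

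Of the type IV chains outside the rule's exclusions, Col4a5 was read at 2.85 and 1.57 RPKM in WT libraries and at 1.82 and 2.23 RPKM in Nfat5-Knockout, with both Nfat5-Knockout libraries between the WT values. The alpha 5 chain joins either alpha 3 and alpha 4, as in the kidney glomerulus, or alpha 6, as in the basement membrane of the epidermis. Col4a6 had 17 exon reads against 1102 of Col4a5 over all libraries, and per length Col4a5 was 65.9 times as high (exact 95% interval 41.0 to 114). Col4a4 lay between 0.322 and 0.476 RPKM and Col4a3 between 0.148 and 0.267 RPKM.

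The genes of these chains lie in pairs, head to head. Col4a6 and Col4a5 are 1308 bases apart on chromosome X, and Col4a4 and Col4a3 are 71 bases apart on chromosome 1. The gap between the last pair lies before the start of both genes and is shown because it is the whole stretch between them, on the plus strand with CG dinucleotides in capitals.
chr1:82586850-82586920 (GRCm38): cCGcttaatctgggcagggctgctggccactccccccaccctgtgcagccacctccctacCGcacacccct
The gap had a GC content of 69.0% and 2 CG dinucleotides. The chains of this pair were not read equally. Per length Col4a4 was 2.34 times Col4a3 in WT (exact 95% interval 1.71 to 3.24) and 1.30 times in Nfat5-Knockout (1.005 to 1.70). The difference between these ratios was not tested. Intron reads took 27.5% of the Col4a4 reads and 14.0% of the Col4a3 reads, more than the 1.79% to 1.97% of all gene reads that fell into introns.

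Among the 11 fibrillar genes only Col5a2 passed 1 RPKM. The fibrillar class summed to 4.50 and 4.25 RPKM in WT libraries and to 3.45 and 6.86 RPKM in Nfat5-Knockout. Col5a2, a type V chain that joins other fibrils and limits their width, was read at 2.64 and 2.44 RPKM in WT libraries and at 1.82 and 4.37 RPKM in Nfat5-Knockout, the lowest and the highest of the 4 values being the Nfat5-Knockout libraries. Its usual partner Col5a1 lay between 0.340 and 0.753 RPKM, so that Col5a2 was 5.87 times as high per length (exact 95% interval 5.20 to 6.63). Col5a3, the third type V chain, lay between 0.282 and 0.612 RPKM.

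The chains of types I and III make up the bulk of dermal collagen, and all 3 of their genes stayed under 1 RPKM. Col1a1, above the floor in each library, was read at 0.385 and 0.259 RPKM in WT libraries and at 0.301 and 0.804 RPKM in Nfat5-Knockout. It had 41, 34, 44 and 91 reads, and Nfat5-Knockout 2 stood above the other libraries. Col1a2, which supplies the other chain of type I collagen, had 1, 3, 1 and 6 reads, and Col3a1 had 1, 4, 2 and 0 reads. Over all libraries Col1a1 thus held 206 exon reads against 11 of Col1a2, or 17.5 times as many per length (exact 95% interval 9.56 to 35.5). Type I collagen is usually built from both chains. Col5a2 had 1492 exon reads against 6 of Col3a1, its neighbour on chromosome 1 at a distance of 24614 bases. Col2a1, the main fibrillar chain of cartilage, lay between 0.436 and 0.478 RPKM in the 4 libraries. Of the 7 chondrocyte marker genes, Sox9, a transcription factor also found in skin epithelium, lay between 68.1 and 76.7 RPKM, and the other 6 (Matn3, Hapln1, Comp, Chad, Acan and Matn1) had under 20 reads each over the 4 libraries.

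The fibril-associated members summed to 3.81, 3.22, 3.12 and 4.48 RPKM over WT 1, WT 2, Nfat5-Knockout 1 and Nfat5-Knockout 2. Col16a1, found near the dermal-epidermal junction, was read at 2.76 and 2.39 RPKM in WT libraries and at 1.87 and 2.51 RPKM in Nfat5-Knockout, with overlapping groups. Col12a1, which binds type I fibrils in tissues under tension, was read at 0.876 and 0.643 RPKM in WT libraries and at 0.997 and 1.52 RPKM in Nfat5-Knockout, so that both Nfat5-Knockout libraries lay above WT. The other 7 genes of the class reached at most 0.327 RPKM in a library, and Col14a1, Col19a1 and Col9a1 had no exon read.

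The 7 beaded filament genes, which include the 3 main chains of type VI collagen, summed to 0.141 and 0.0778 RPKM in WT libraries and to 0.138 and 0.317 RPKM in Nfat5-Knockout. Col6a1 led them with 35 reads over the 4 libraries, against 13 of Col6a2 and 26 of Col6a3, and 17 of the 35 reads were in Nfat5-Knockout 2. The 3 transmembrane members summed to at most 0.1004 RPKM in a library. Type XIII collagen is a transmembrane protein of cell contacts, and all 22 reads of Col13a1 fell into introns.

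The share of reads in introns was low in all members above 1 RPKM and varied widely among the low members. Intron reads made up 0.628% of the Col18a1 reads and between 0.467% and 5.38% of the reads of the other members above 1 RPKM. Over whole libraries they made up 1.79% to 1.97%. Among the low members Col20a1 reached 63.5% (96 reads) and Col23a1 53.2% (47 reads), but Col5a3 had 0.442%, Col1a1 1.90%, Col2a1 2.02%, and Col6a1, Col6a2, Col1a2 and Col11a2 had no intron read among 35, 13, 11 and 3 reads. Altogether 7 members had no exon read, 5 of them with reads in introns (Col13a1, Col14a1, Col6a5, Col24a1 and Col19a1) and 2 with no read (Col10a1 and Col9a1). Reads over exon junctions made up 45.2% of the exon reads of Col18a1 and 3.06% of those of Col8a1, whose 5108 exon bases lie in 4 exons. Where a library holds no exon read, its depth still allows a level up to the floor of 3 reads.

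**Figure D2:**
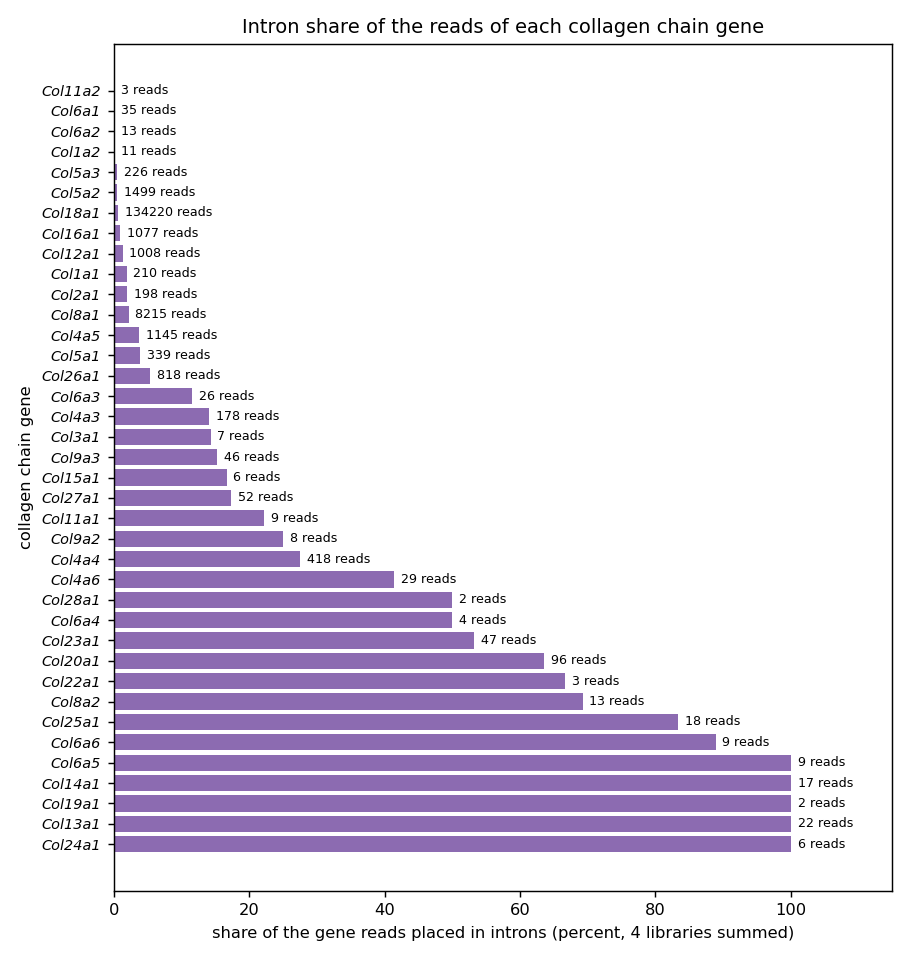
Share of gene reads that fell into introns (percent, 4 libraries together) for the 38 members with a read, with the number of reads beside each bar. The 7 members above 1 RPKM lie between 0.467% and 5.38%, the others spread from 0% (Col6a1, Col6a2, Col1a2 and Col11a2) to 100% in the 5 members without an exon read, which hold 2 to 22 reads each.

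The second question was which members changed in Nfat5-Knockout. Of the 17 members with enough reads for a test with edgeR, Col26a1 fell and no other member passed an adjusted p of 0.05. The background over all 12614 genes tested was 160 called genes, or 1.27%, with 0.943% higher and 0.325% lower. The 1 call among 17 members (5.88%) is a single gene, too few to call the members different from that background. At an unadjusted p under 0.05 edgeR gave 3 members, Col26a1, Col12a1 and Col5a3, against 1846 of all genes. The median log2 fold change of the tested members was 0.19, with 11 above 0 and 6 below, beside -0.01 over all genes tested. The other 23 members were not tested for lack of reads.

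Col26a1 fell from 5.65 ± 1.69 RPKM in WT to 1.52 ± 0.0840 RPKM in Nfat5-Knockout (SD, n = 2 libraries each), a ratio of 0.269. On the log2 scale it fell by 1.85 (SE 0.25, edgeR adjusted p = 0.0251). The call rested on both Nfat5-Knockout libraries, because without replicate 1 the adjusted p was 0.137 and without replicate 2 it was 0.177, with log2 fold changes of -1.77 and -1.92. Col26a1 was also the only 1 of 6 members with a mean of at least 2 RPKM whose group means differed at least 2-fold with no overlap of the libraries, a rule that took 2.28% of the 9273 genes of that level. Its intron share was 5.38%.

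**Figure D3:**
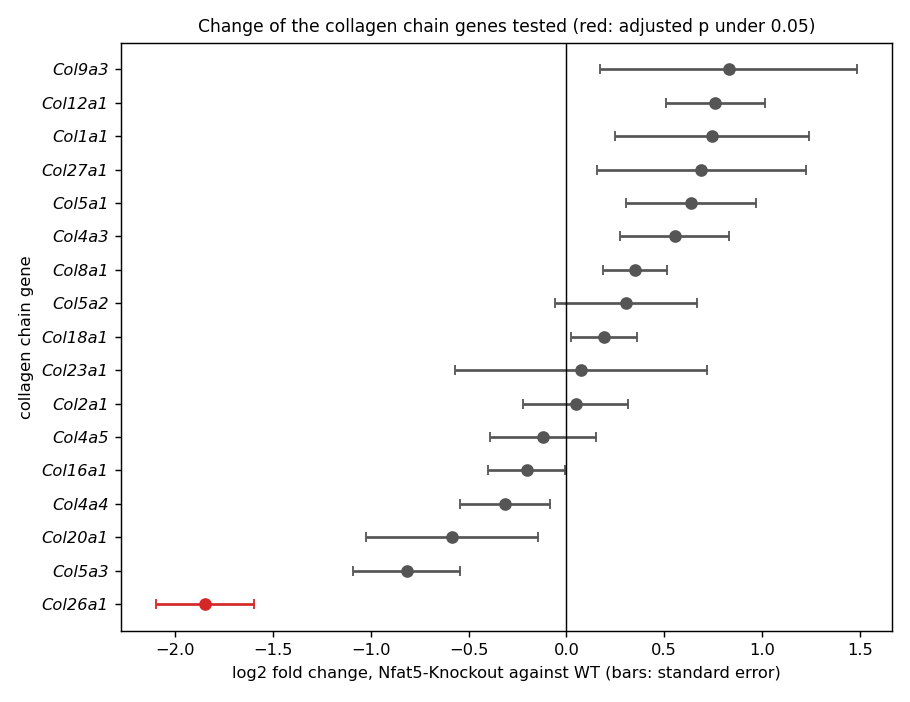
Log2 fold change (Nfat5-Knockout against WT) with its SE from edgeR for the 17 collagen chain genes tested. Col26a1, in red, lies at -1.85 and is the single member past the threshold, while the others run from -0.82 (Col5a3) to 0.83 (Col9a3). Col9a3 had only 3 and 13 reads in WT and 11 and 19 in Nfat5-Knockout. With each library left out its log2 fold change ran from 0.19 to 1.96.

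Neither Col12a1 nor Col5a3 passed the adjusted threshold after the filter on low reads. Col12a1 was at 0.759 ± 0.165 RPKM in WT libraries and 1.26 ± 0.370 RPKM in Nfat5-Knockout (log2 fold change 0.76, SE 0.25, edgeR adjusted p = 0.239). It passed in edgeR once the filter on low reads was left out (adjusted p = 0.00158), a setting in which 1137 of 18043 genes passed. Col5a3 was at 0.581 ± 0.0439 RPKM in WT libraries and 0.321 ± 0.0545 RPKM in Nfat5-Knockout (-0.82, SE 0.27, edgeR adjusted p = 0.240). For both, the libraries of the groups did not overlap, as was the case for 5 of the 17 tested members (Col26a1, Col12a1, Col5a3, Col4a3 and Col9a3) and for 46.5% of all genes tested. The 3 type V chains were thus listed with different signs, Col5a3 at -0.82, Col5a2 at 0.30 (SE 0.36) and Col5a1 at 0.64 (SE 0.33), of which none passed the test.

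The 2 most abundant members did not pass the test either. Col18a1 was at 220 ± 7.83 RPKM in WT libraries and 248 ± 59.4 RPKM in Nfat5-Knockout (log2 fold change 0.19, SE 0.17, edgeR adjusted p = 0.663). Col8a1 was at 16.5 ± 2.18 RPKM and 21.0 ± 4.87 RPKM (0.35, SE 0.17, edgeR adjusted p = 0.390). The spread between the Nfat5-Knockout libraries of both genes was larger than the difference of the means. Col16a1 (-0.20), Col4a5 (-0.12) and Col2a1 (0.05) had SEs of 0.20 to 0.27.

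The libraries labelled Nfat5-Knockout differed from each other in several members, high and low. Of the 17 tested members, 8 had their highest value in Nfat5-Knockout 2 (Col18a1, Col5a2, Col12a1, Col5a1, Col1a1, Col9a3, Col27a1 and Col23a1), and 2 in Nfat5-Knockout 1. Over all genes tested, 24.4% were highest in Nfat5-Knockout 2 and 21.3% in Nfat5-Knockout 1. Without Nfat5-Knockout 2 the log2 fold changes of Col5a2 (-0.47), Col1a1 (-0.11), Col18a1 (-0.096) and Col23a1 (-0.97) turned below 0. The excluded type IV genes were also highest in Nfat5-Knockout 2, at 41.6 RPKM (Col4a1) and 43.7 RPKM (Col4a2). For them Nfat5-Knockout 1 also stood above both WT libraries. Col4a1 was at 27.9 RPKM there against 19.6 and 18.9 RPKM in WT, and Col4a2 at 31.6 RPKM against 26.9 and 21.3 RPKM.

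Collagen levels were also set beside fibroblast markers, though no amount of fibroblast RNA was derived. Of 18 fibroblast marker genes other than collagens, 6 had under 20 reads over the 4 libraries. Lumican (Lum) had 1 read in all, decorin (Dcn), a small proteoglycan on collagen fibrils, had 1, 1, 0 and 5 reads, and dermatopontin (Dpt) had 1, 1, 1 and 0. The receptor gene Pdgfra had 19 and 14 reads in WT and 38 and 26 in Nfat5-Knockout, no more than 0.160 RPKM. The 6 were Dcn, Lum, Dpt, Twist1, Fap and Pi16. Over the 4 libraries other genes of the 18 were clearly read, with 2405 reads of Fbln1, 829 of Vim, 280 of S100a4, 254 of Cd34 and 125 of Postn. Beside them stood 210 reads of Col1a1, 11 of Col1a2 and 7 of Col3a1. Which cells the reads of these genes came from was not tested. The keratins Krt14 and Krt5, which mark basal KCs, lay between 4990.4 and 6985 RPKM.

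The summed level of the 18 markers was 18.9 and 18.3 RPKM in WT libraries and 19.3 and 25.0 RPKM in Nfat5-Knockout. Because the cells behind these reads were not told apart, the sum is no measure of fibroblast RNA. In WT the highest markers were Fbln1 (8.19 and 7.78 RPKM) and S100a4 (5.46 and 6.11 RPKM). In Nfat5-Knockout 2, where the sum was largest, the highest was Vim at 7.98 RPKM, with S100a4 at 7.62 RPKM and Fbln1 at 5.65 RPKM. Of the 10 markers tested, none passed in edgeR, 4 had an unadjusted p under 0.05, 8 lay above 0 and 2 below, with a median log2 fold change of 0.76. Over all 12614 genes tested, 1846 had an unadjusted p under 0.05 and 6061 lay above 0. Without a filter on low reads 3 of the 18 markers, Postn, Thy1 and Vim, passed as higher, in a setting where 1137 of 18043 genes passed. Vim, the intermediate filament gene of mesenchymal cells, was read at 3.99 and 1.61 RPKM in WT libraries and at 4.94 and 7.98 RPKM in Nfat5-Knockout, highest in the library where 8 members were highest. In bulk RNA, a change in the number of such cells and a change in RNA per cell cannot be told apart.

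**Figure D4:**
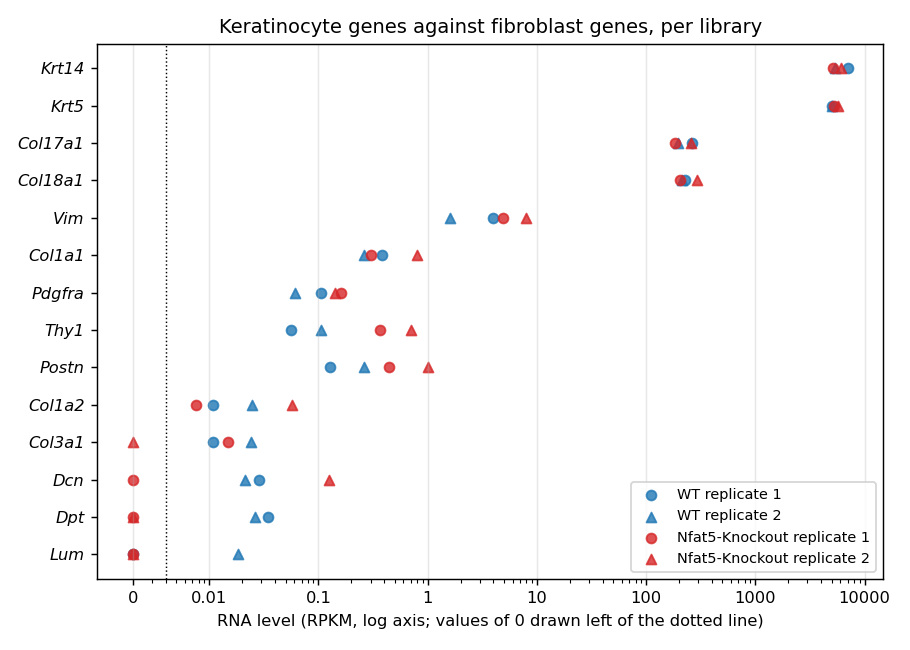
RPKM per library (log axis, values of 0 drawn left of the dotted line) of KC genes, collagen genes and fibroblast genes. Krt14 and Krt5 lie between 4990.4 and 6985 RPKM and Col17a1 and Col18a1 between 182 and 290 RPKM, whereas Dcn, Dpt, Lum, Col1a2 and Col3a1 lie at or below 0.125 RPKM in all libraries.

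Markers of other cell types were read beside the members. All 5 of the 7 smooth muscle genes that were tested rose in edgeR, among them Acta2 (164 and 134 RPKM in WT, 450 and 723 RPKM in Nfat5-Knockout, log2 fold change 2.00, adjusted p = 0.0192) and Tagln (2.11, adjusted p = 0.00768). The others were Myl9 (2.47), Cnn1 (2.17) and Myh11 (4.71). The 7 genes summed to 186 and 153 RPKM in WT libraries and to 524 and 832 RPKM in Nfat5-Knockout. Of Des and Actg2, the first was listed at 0 in all but 1 library and the second reached at most 0.168 RPKM. Of the 6 melanocyte genes tested only Tyrp1 passed, as lower (3.11 and 3.10 against 0.602 and 0.908 RPKM, -2.04, edgeR adjusted p = 0.0203). Of these 6, 5 lay below 0 and Mitf above (0.27), with a median of -1.20. The 8 genes of that list summed to 7.81 and 7.49 RPKM in WT libraries and to 2.32 and 3.29 RPKM in Nfat5-Knockout. The called markers thus moved with the labels, as Col26a1 did, and their part in the collagen values was not tested. No gene of the KC (10 tested), endothelial (2), immune (3) and chondrocyte (1) lists passed the test, no Schwann cell gene had reads enough to be tested, and the largest sum among the last 4 lists was that of the chondrocyte genes, between 68.2 and 76.8 RPKM, nearly all from Sox9.

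The genes that make, cut and crosslink collagen spanned a range as wide as that of the chains. Of 32 such genes 25 were tested, and 2 passed in edgeR (1 higher, 1 lower), against 1.27% of all genes. At an unadjusted p under 0.05 edgeR gave 10 of the 25, against 1846 of all 12614 genes tested. The median log2 fold change of the 25 was -0.04, with 10 above 0 and 15 below. The chaperones and enzymes of the endoplasmic reticulum led: P4hb, a subunit of prolyl 4-hydroxylase, lay between 289 and 350 RPKM, and Ppib, a prolyl isomerase, between 248 and 290 RPKM. Serpinh1, the collagen chaperone HSP47, lay between 225 and 281 RPKM. Among the genes at the low end, Loxl1, Loxl2 and Loxl3, relatives of Lox, and the protease genes Adamts2, Adamts3, Adamts14 and Tll2 reached at most 0.252 RPKM in a library.

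Lox, which starts the crosslinking of collagen and elastin outside the cell, rose. It was read at 0.388 and 0.329 RPKM in WT libraries and at 1.72 and 2.67 RPKM in Nfat5-Knockout, a ratio of 6.12 of the means (log2 fold change 2.58, SE 0.29, edgeR adjusted p = 0.0174). Tll1, a protease of the family of BMP1 that can trim procollagen ends, fell from 15.5 and 20.3 RPKM in WT to 5.56 and 8.19 RPKM in Nfat5-Knockout (log2 fold change -1.36, SE 0.21, edgeR adjusted p = 0.0353). Neither gene had overlapping groups, but without Nfat5-Knockout replicate 2 neither passed the test and without replicate 1 Lox alone did. Bmp1 itself was at 24.4 and 26.6 RPKM in WT libraries and at 23.1 and 27.1 RPKM in Nfat5-Knockout (-0.01, SE 0.12).

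**Figure D5:**
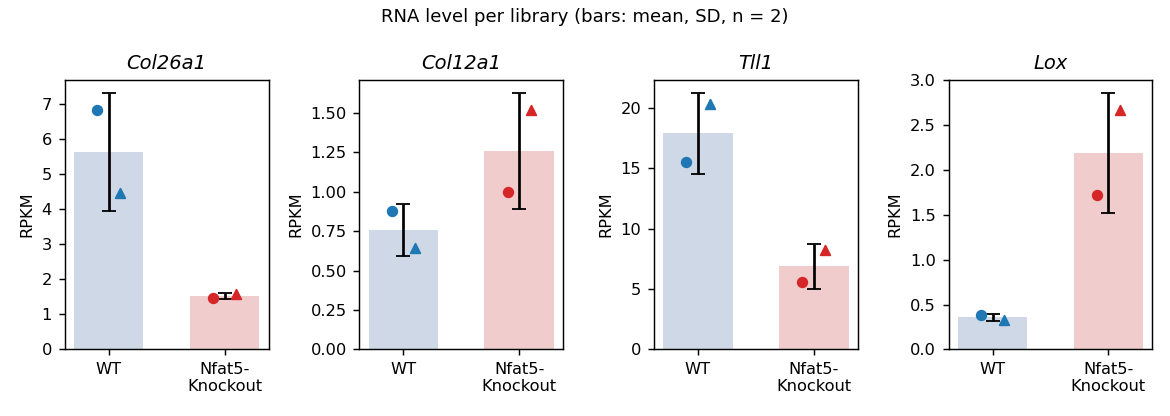
RPKM of Col26a1, Col12a1, Tll1 and Lox in the 4 libraries, with bars for the group mean, error bars for the SD (n = 2) and points for the libraries. Col26a1 and Tll1 were lower and Lox higher in both Nfat5-Knockout libraries and passed the test in edgeR, while Col12a1 (0.759 against 1.26 RPKM) did not.

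Of 10 collagen receptor genes 7 were tested with edgeR and none passed, with 2 at an unadjusted p under 0.05 and all 7 log2 fold changes below 0 (median -0.30). Over all 12614 genes tested, 1846 had an unadjusted p under 0.05 and 6553 lay below 0. The receptor values come from all gene reads, and introns held 85.9% of the Itga1 reads, 76.6% of those of Itga10 and 97.7% of those of Itga11. With exon reads 5 receptor genes were tested, and in exon RPKM Itga1 had a ratio of 1.34 of the Nfat5-Knockout to the WT mean, so the shared sign does not hold on that scale. Itgb1, the common beta chain of the collagen-binding integrins, lay between 356 and 390 RPKM, and Ddr1, a tyrosine kinase receptor of collagen, between 69.2 and 87.2 RPKM. Itga2, which pairs with Itgb1 in the collagen receptor of KCs, stood at 38.4 and 52.3 RPKM in WT libraries and at 26.6 and 21.1 RPKM in Nfat5-Knockout (-0.93, SE 0.17, edgeR adjusted p = 0.0562). It lay just above the threshold and passed it, as lower, with DESeq2 and in edgeR with other scaling factors. The fibroblast integrin gene Itga11 reached at most 0.00909 RPKM in a library, and Gp6, the platelet receptor gene, had no read.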

How the data were processed

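Poly(A) RNA-seq libraries of cultured tail KCs (2 WT, 2 Nfat5-Knockout, group and number from the sample titles) were aligned to GRCm38 by the authors in CLC Genomics Workbench with default settings, after adapter trimming. The deposited tables give raw read counts per gene (in the gene, its exons, its introns and over its exon junctions) and RPKM values made by the authors from exon reads, exon length and mapped reads. The annotation release and strand setting are not given in the sources used here, and reads with more than 1 possible site were distributed by the software.

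Total gene reads were tested with edgeR 4.0.16 (R 4.3.3) after filterByExpr and TMM scaling, with the quasi-likelihood method and genotype as the sole term, two-sided. P-values were adjusted by the Benjamini-Hochberg method over 12614 genes, with a threshold of 0.05. An SE is the log2 fold change over the root of its F statistic. RPKM levels were used as deposited. Ratios between chains used exon reads and exon length with exact binomial intervals. A second description took a 2-fold ratio of RPKM means without overlap, with the higher mean at 2 RPKM or more. Members above 1 RPKM or past the threshold are given per library, other members by class and range. From the enzyme, receptor and marker lists the called genes are given. The 2 highest genes are given for the enzyme, receptor, fibroblast, KC and smooth muscle lists, and not for all of the other lists. Further list genes (Serpinh1, Bmp1, Itga2, Itga11, Gp6, Vim, Postn, Thy1, Dcn, Dpt, Lum, Pdgfra, Twist1, Fap, Pi16, Cd34, Loxl1, Loxl2, Loxl3, Adamts2, Adamts3, Adamts14, Tll2, Itga1, Itga10, Actg2, Des, Matn3, Hapln1, Comp, Chad, Acan, Matn1) were chosen after their values were seen, as were the members given in more detail than this rule asks, such as Col1a1, Col1a2, Col3a1, Col5a3 and Col6a1. The members and lists were chosen with earlier results of these data known. Alternatives were other scaling and filters (at least 10 reads in every library, or none), DESeq2 1.42.0, limma 3.58.1 on log2(RPKM + 1) and log2(RPKM + 0.1) of genes with a mean of at least 0.5 RPKM, exon reads, a replicate block and each library left out. The procedure was also run on simulated counts, and no result here rests on that run. The WT libraries differed from each other by more than counting noise (chi-square per degree of freedom 13.3), and so did the Nfat5-Knockout libraries (13.8).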

Additional observations from a re-analysis of the deposited data

How the results depend on the processing

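With 2 libraries per group, 1 library can decide a call, and libraries left out leave a lone sample that is assumed to vary like the other group. Called genes over all genes were 160, against 1137 without a filter on low reads (723 higher, 414 lower), 426 with DESeq2, and 16 to 478 with each library left out. The called collagen genes were 1, against 2 without a filter (Col26a1 and Col12a1) and 0 to 1 with each library left out, 0 without either Nfat5-Knockout library. The called enzyme and chaperone genes were 2, against 5 without a filter and 0 to 4 with each library left out. Of the receptor genes 0 were called, against 1 (Itga2) with RLE size factors, library totals, no filter, at least 10 reads in every library, DESeq2, total exon reads and uniquely placed exon reads, and 0 to 1 with each library left out. Of the fibroblast markers 0 were called, against 3 without a filter and 0 to 1 with each library left out. Col26a1 kept its direction in 15 alternatives, with log2 fold changes from -2.15 to -1.38 and adjusted p from 6.3e-17 to 0.177, and passed in 13 of them. With each library left out, the direction turned for 7 collagen genes, with log2 fold changes from -0.47 to 0.82 for Col5a2, -0.096 to 0.43 for Col18a1, -0.11 to 1.30 for Col1a1, -0.97 to 0.74 for Col23a1, -0.46 to 0.023 for Col16a1, -0.48 to 0.36 for Col4a5 and -0.028 to 0.14 for Col2a1. Those of Col5a2, Col18a1 and Col1a1 turned only without Nfat5-Knockout replicate 2. None of these had passed the test, and the cause was not tested.

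Replicate numbers in the titles share only a number. The correlation of deviations between same-numbered libraries was -0.065 over the 12614 genes tested and -0.116 over the 11899 genes with at least 10 reads in every library. With the replicate block 132 genes and 1 collagen gene were called. A crossed replicate block, added after the data were seen, called 1142 genes, 2 collagen genes (Col26a1 and Col12a1), 5 enzyme and chaperone genes, 1 receptor gene and 3 fibroblast markers, and gave Col23a1 a log2 fold change of -0.017.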
